A study of Mus musculus with 29 samples.

Results

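The genes described are 5 synaptic adhesion genes of the mouse retina, the neurexins Nrxn2 and Nrxn3 and the neuroligins Nlgn1, Nlgn2 and Nlgn3. They were taken by symbol from an RNA-seq table of 24062 genes. Each was followed across 15 RNA-seq libraries, 3 from each of 5 populations sorted by fluorescence from adult retina, and across 12 ATAC-seq libraries with counts, 2 from each of 6 populations. Peaks called by the authors came from these 12 and from 2 further libraries of double-sorted green cones, which entered no count or test. ATAC-seq counts the reads that a transposase releases from open chromatin, in 110715 regions of 201 bp.

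The bipolar populations came from mice that carry GFP at the endogenous Otx2 locus (Otx2-GFP+/-), which marks bipolar cells strongly and photoreceptors weakly. All bipolar cells together (pan-BC) were sorted from Otx2-GFP+/- mice for RNA-seq and from Otx2-GFP+/-; Grm6-YFP+/+ mice for ATAC-seq. ON bipolar cells (ON-BC) and OFF bipolar cells (OFF-BC) were separated in Otx2-GFP+/-; Grm6-YFP+/+ mice by YFP driven from the Grm6 promoter, and OFF-BC were sorted a second time. Mice were at postnatal day 42 to 48. An ON type with little Grm6, BC5D, is likely missing from both gates. The photoreceptor libraries were made earlier by the same laboratory at postnatal day 56, from rods of Nrl-eGFP mice, from photoreceptors of Nrl-eGFP;NrlKO mice, which develop as blue cones and stand in for them here, and, for ATAC-seq alone, from green cones of Opn1mw-GFP mice. Cell class, age and study therefore changed together between bipolar cells and photoreceptors and cannot be told apart. The labels number the libraries of a group without saying which animals they came from, so p-values measure the spread between libraries.

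Neurexins are presynaptic transmembrane proteins that bind partners across the synaptic cleft, and neuroligins are the best known of these partners. Neuroligin 1 is found mainly at excitatory synapses, neuroligin 2 mainly at inhibitory synapses, and neuroligin 3 at both. Photoreceptors pass their signal to bipolar cells at ribbon synapses in the outer retina, and bipolar cells receive that signal on their dendrites, receive inhibition on their axon terminals and release glutamate there. Each neurexin gene has a far upstream promoter for long α forms and an internal promoter for shorter β forms, and the counts per gene used here do not tell these forms apart.

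In RefSeq on GRCm38, the mm10 build used by the deposited regions, Nrxn2 lies at chr19:6418756-6533217 on the plus strand and Nrxn3 at chr12:88722701-90334935 on the plus strand. Nlgn1 lies at chr3:25421808-26332866 and Nlgn2 at chr11:69823123-69837784, both on the minus strand, and Nlgn3 lies at chrX:101299179-101321350 on the plus strand. Nrxn3 spans 1612235 bp and Nlgn1 911059 bp, whereas Nlgn2 spans 14662 bp. Curated transcripts gave 1 start site for Nrxn2, 3 for Nrxn3, 2 for Nlgn1, 2 for Nlgn2 and 1 for Nlgn3.

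The following 6 regions carry differences in accessibility described further on. They and 1 promoter that was open throughout are printed 5′ to 3′ from the RefSeq sequence of GRCm38.p6, the regions on the plus strand and the promoter on its gene's minus strand. Capitals mark 3 motifs named in the study of these cells, searched on both strands: the K50 homeodomain motif TAATCC, the Q50 homeodomain motif as TAATTA or TAATTG, and the E-box CANNTG, where a base may belong to more than 1 match. The Nlgn1 region in an intron at chr3:26206256-26206456 was the region of these genes called between ON-BC and OFF-BC. The intronic Nrxn3 region at chr12:89049385-89049585 held the largest difference of its gene between pan-BC and rods. The intronic Nrxn3 regions at chr12:88958486-88958686 and chr12:89629910-89630110 separated blue cones from rods and pan-BC from blue cones. The intronic Nlgn2 region at chr11:69835941-69836141 was the most open in rods, and the intronic Nrxn2 region at chr19:6503009-6503209 was among the few of its gene that were more open in pan-BC. That Nrxn2 region is nearer to the start of another gene, Slc22a12. The Nlgn2 promoter, the 250 bases before the start at chr11:69837784, was open in every population.
Nlgn1 intron, chr3:26206256-26206456: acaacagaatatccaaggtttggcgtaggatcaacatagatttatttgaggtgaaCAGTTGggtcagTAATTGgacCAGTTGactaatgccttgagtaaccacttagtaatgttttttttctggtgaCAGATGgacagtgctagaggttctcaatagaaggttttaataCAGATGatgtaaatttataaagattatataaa
Nrxn3 intron, chr12:89049385-89049585: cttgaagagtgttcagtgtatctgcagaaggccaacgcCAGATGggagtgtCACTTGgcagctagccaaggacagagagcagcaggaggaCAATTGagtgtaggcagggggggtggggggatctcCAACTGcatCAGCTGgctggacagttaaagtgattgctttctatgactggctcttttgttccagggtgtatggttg
Nrxn3 intron, chr12:88958486-88958686: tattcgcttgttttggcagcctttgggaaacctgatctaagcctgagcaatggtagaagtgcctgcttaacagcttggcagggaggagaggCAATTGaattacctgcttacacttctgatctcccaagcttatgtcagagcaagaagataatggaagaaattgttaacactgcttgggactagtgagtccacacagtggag
Nrxn3 intron, chr12:89629910-89630110: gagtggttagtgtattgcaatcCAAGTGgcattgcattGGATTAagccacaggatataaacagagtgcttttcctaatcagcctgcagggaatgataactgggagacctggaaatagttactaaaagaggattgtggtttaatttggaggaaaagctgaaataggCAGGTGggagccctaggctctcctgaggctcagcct
Nlgn2 intron, chr11:69835941-69836141: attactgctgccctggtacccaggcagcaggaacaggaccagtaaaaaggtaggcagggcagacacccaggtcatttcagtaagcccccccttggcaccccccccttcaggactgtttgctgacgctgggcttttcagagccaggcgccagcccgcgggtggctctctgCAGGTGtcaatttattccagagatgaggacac
Nrxn2 intron, chr19:6503009-6503209: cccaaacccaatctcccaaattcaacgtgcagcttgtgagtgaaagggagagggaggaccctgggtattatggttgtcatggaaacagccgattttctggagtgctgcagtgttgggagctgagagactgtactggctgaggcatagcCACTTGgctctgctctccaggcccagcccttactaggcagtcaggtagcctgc
Nlgn2 promoter, chr11:69837785-69838034: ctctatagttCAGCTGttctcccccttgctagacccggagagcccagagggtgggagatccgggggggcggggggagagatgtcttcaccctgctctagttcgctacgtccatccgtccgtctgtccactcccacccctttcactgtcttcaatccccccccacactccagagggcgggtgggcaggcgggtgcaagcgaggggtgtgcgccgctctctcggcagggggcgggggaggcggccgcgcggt

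RNA-seq libraries held 12329548 to 26266746 counted reads, and ATAC-seq libraries 4176776 to 12345845. Values are read counts divided by a size factor per library, called normalized counts below, and levels between genes are compared as RPKM, reads per kb of exon scaled to the library's counted reads. Summed over 12 bipolar marker genes, normalized counts ranged from 244216.8 to 270192.0 in pan-BC, from 33446.7 to 38833.4 in blue cones and from 8446.9 to 9581.1 in rods. Summed over 10 rod markers, they ranged from 1975580.3 to 2699467.3 in rods and from 38346.3 to 48098.5 in pan-BC. Over 10 cone markers they ranged from 1745430.3 to 1969988.3 in blue cones and from 120687.9 to 149922.8 in pan-BC. Those cone markers include Gnb3, which the study describes as also needed for ON bipolar cell function, at a mean of 76280.5 in pan-BC. Sums over 8 Muller glia markers reached 3857.0 at most and those over 9 amacrine markers 2447.9. That amacrine maximum was in rods, where Slc6a9 alone averaged 2271. In blue cones, 4 of the amacrine markers (Gad2, Slc32a1, Chat and Slc18a3) had no reads. In these bulk samples, fewer cells of a type and less RNA per cell cannot be told apart.

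Differences are log2 fold changes on log2(normalized count + 1), given with their standard error, first population minus second. The fit pooled the spread of all populations, so a gene has the same standard error in every comparison. Populations with few reads add to it. A gene was called when limma's test against a log2 fold change of 1 gave an adjusted p below 0.05 over the 14024 genes tested. All 5 genes passed the filter on low counts. Between pan-BC and rods, 27.8% of genes were called higher in pan-BC and 15.8% higher in rods, and all 5 genes were called higher in pan-BC. Between pan-BC and blue cones, 22.7% were called higher in pan-BC and 13.7% higher in blue cones, and 4 of the 5 were called higher in pan-BC. Between ON-BC and OFF-BC, 2.95% were called higher in ON-BC and 3.60% higher in OFF-BC, and Nlgn1 was called higher in OFF-BC. Between rods and blue cones, 4.63% were called higher in rods and 11.3% higher in blue cones, and Nlgn2 was called higher in rods and Nrxn3 higher in blue cones. Scaling to library totals raised the median log2 fold change of all genes between pan-BC and rods by 0.338, and the share of calls that were higher in pan-BC went from 63.8% to 74.0%. All 5 genes remained called under it.

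**Figure D1:**
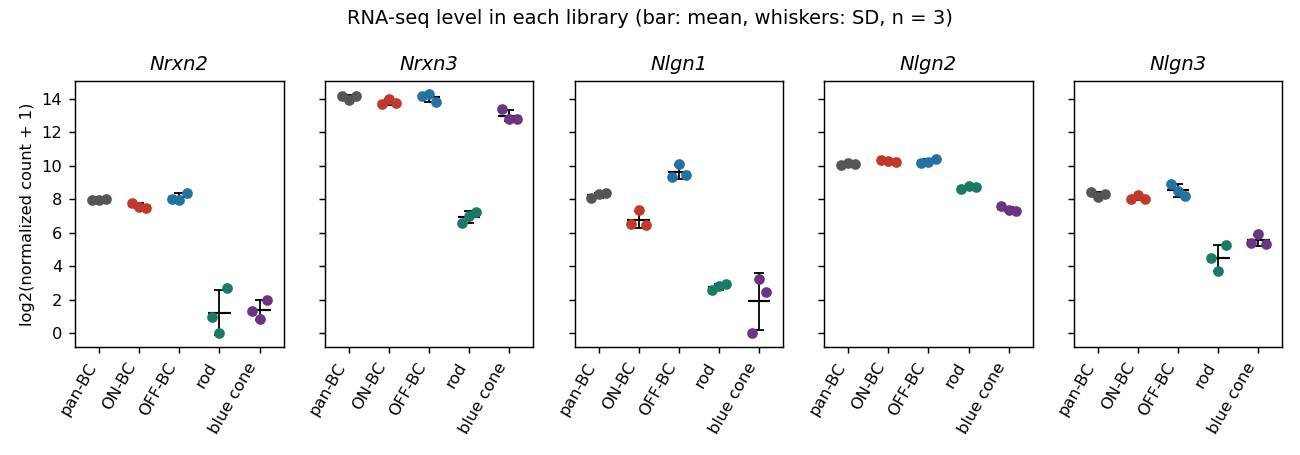
RNA-seq level of the 5 genes as log2(normalized count + 1) on the vertical axis, in pan-BC, ON-BC, OFF-BC, rods and blue cones. Points are libraries, bars the mean and whiskers the SD over n = 3. Nrxn3 is high in all bipolar populations and in blue cones and low in rods, where its normalized counts were 95.1 to 151, and Nrxn2 and Nlgn1 are near 0 in both photoreceptor populations.

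Nrxn3 was the most abundant of the 5 genes in every bipolar population and in blue cones. Its normalized counts were 18563.9, 15643.0 and 18200.1 in pan-BC. ON-BC held 13197.5, 16359.3 and 13869.8 and OFF-BC 18157.2, 20146.7 and 14339.6. Blue cones held 10521.1, 7175.4 and 7126.1, and rods 95.1, 125 and 151. The bipolar libraries were thus all above the blue cones, and the blue cones all above the rods. The difference between pan-BC and rods was 7.15 ± 0.18 (adjusted p = 2.41e-14), a 141-fold ratio of means. Blue cones exceeded rods by a 66.8-fold ratio of means, with a log2 fold change for rods minus blue cones of -6.05 ± 0.18 (adjusted p = 4.26e-13).

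Nrxn3 in blue cones stood at 47.4% of its mean in pan-BC. The difference between pan-BC and blue cones, 1.10 ± 0.18, was not called (adjusted p = 0.612), although the ranges did not overlap and limma's test against a log2 fold change of 0 gave an adjusted p of 3.61e-05. In the same blue cone libraries, 10 of the 12 bipolar markers had means of at most 5.44% of those in pan-BC. Grm6, the glutamate receptor of ON bipolar dendrites, was at 1.53%. The exceptions were Otx2 at 70.7%, a factor shared by photoreceptors and bipolar cells, and Cabp5, a calcium-binding protein, at 71.2%. ON-BC and OFF-BC overlapped for Nrxn3, and the difference of -0.27 ± 0.18 was not called (adjusted p = 1.0).

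Nrxn2 was expressed at a low level in bipolar cells and was close to absent in photoreceptors. Normalized counts were 250, 247 and 261 in pan-BC. The ON-BC libraries held 216, 185 and 178 and the OFF-BC libraries 257, 243 and 333. Rods had 1, 0 and 5 reads and blue cones 2, 1 and 4, so that the photoreceptor levels rest on a handful of reads per library. The difference was 6.77 ± 0.49 against rods (adjusted p = 1.11e-08) and 6.61 ± 0.49 against blue cones (adjusted p = 3.06e-08). Every ON-BC library was below every OFF-BC library, but the difference, -0.52 ± 0.49, was not called (adjusted p = 1.0). That standard error pools all populations. The SD of the log2 values was 1.36 in rods and 0.587 in blue cones, but 0.147 in ON-BC and 0.243 in OFF-BC. Rods and blue cones overlapped.

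Nlgn1 was the 1 gene of the 5 called between the bipolar subclasses. Normalized counts were 653, 1111.3 and 692 in OFF-BC and 91.8, 164 and 85.2 in ON-BC, with pan-BC between them at 267, 311 and 330. The groups did not overlap, and the mean in OFF-BC was 7.21-fold that in ON-BC. The log2 fold change for ON-BC minus OFF-BC was -2.86 ± 0.56 (adjusted p = 0.0349). Its standard error pools all populations, with SDs of the log2 values of 0.511 in ON-BC, 0.421 in OFF-BC, 1.68 in blue cones and 0.189 in rods. Across 16 alternative settings the log2 fold change stayed between -3.15 and -2.62 and the adjusted p ranged from 5.44e-09 to 0.164. The call was lost without ON-BC replicate 1 (-2.74, adjusted p = 0.124) or replicate 3 (-2.69, 0.137), without OFF-BC replicate 1 (-3.00, 0.0682), replicate 2 (-2.62, 0.164) or replicate 3 (-2.96, 0.0659), and without the filter on low counts (0.052). Nlgn1 had at most 11 reads in any blue cone library and 6 in any rod library. The summed cone markers ran from 40733.2 to 125170.2 in OFF-BC and from 88855.4 to 114903.6 in ON-BC. Gnb3, which ON bipolar cells also use, averaged 92915.4 in ON-BC and 13746.1 in OFF-BC. Every other cone marker had the higher mean in OFF-BC, as with Opn1sw at 21534.7 against 681 for ON-BC. The summed rod markers ran from 5459.3 to 24311.7 in OFF-BC and from 22177.5 to 28125.2 in ON-BC. Sums over markers of 3 other cell types were higher in every OFF-BC library. The 8 Muller glia markers summed to 2834.8 to 3857.0 in OFF-BC against 1475.6 to 1715.7 for ON-BC. Of these, Sox9 (means of 1400.4 and 25.1), Glul and Slc1a3 were higher in OFF-BC, and Rlbp1, Apoe, Aqp4, Vim and Dkk3 higher in ON-BC. The 9 amacrine markers summed to 924 to 1112.5 against 328 to 487, with Chat at 0 in all OFF-BC libraries. Of these, Slc6a9 averaged 566 in OFF-BC and 159 in ON-BC but 2271 in rods and 1476.1 in blue cones. Gad1 and Chat had the higher mean in ON-BC and the rest in OFF-BC. The 5 microglia markers summed to 34.6 to 115 against 11.3 to 26.5. The sum over ganglion cell markers went the other way, at 41.4 to 85.0 in OFF-BC against 151 to 260 for ON-BC. The part of these cells in the Nlgn1 difference was not tested.

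Against the photoreceptors, Nlgn1 was higher in pan-BC by 5.48 ± 0.56 over rods (adjusted p = 1.39e-06) and by 6.35 ± 0.56 over blue cones (adjusted p = 2.74e-07). Rods had 5, 6 and 6 reads and blue cones 0, 11 and 6, and these overlapped.

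Nlgn2 varied least of the 5. Normalized counts were 1036, 1136.9 and 1103.6 in pan-BC. They were 1289.8, 1222.8 and 1196.3 for ON-BC and 1135.5, 1193.0 and 1338.5 for OFF-BC. Rods held 386, 445 and 423, and blue cones 190, 160 and 159. The order was bipolar cells, then rods, then blue cones, with no overlap between these 3 levels and with ON-BC and OFF-BC overlapping at a difference of 0.02 ± 0.11 (adjusted p = 1.0). Pan-BC exceeded rods by 1.39 ± 0.11 (adjusted p = 0.0035) and blue cones by 2.68 ± 0.11 (adjusted p = 7.35e-10). Rods exceeded blue cones by 1.30 ± 0.11, which only just passed the test (adjusted p = 0.0443). That call was lost in 11 of 15 alternatives. Among those were a pseudocount of 4 (adjusted p = 0.0671), no filter on low counts (0.0513), TMM scaling (0.0522), scaling to the library total (0.189), DESeq2 (0.116) and a fit of the 2 groups alone (0.213), and leaving out blue cone replicate 2 (0.146), blue cone replicate 3 (0.14), rod replicate 2 (0.159) or rod replicate 3 (0.108). In all 15 the value stayed between 1.23 and 1.38.

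Nlgn3 followed the bipolar pattern with a residue in blue cones. Normalized counts were 342, 278 and 312 in pan-BC. They were 257, 301 and 252 for ON-BC and 478, 356 and 289 for OFF-BC. Blue cones held 40.6, 59.9 and 38.5, and rods 21.3, 12.3 and 36.7, so that rods and blue cones did not overlap but lay close. Pan-BC exceeded rods by 3.80 ± 0.31 (adjusted p = 2.82e-07) and blue cones by 2.74 ± 0.31 (adjusted p = 8.61e-05). Rods minus blue cones was -1.05 ± 0.31, not called (adjusted p = 1.0), with an adjusted p of 0.00758 against a log2 fold change of 0. ON-BC and OFF-BC overlapped, at -0.44 ± 0.31 (adjusted p = 1.0).

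**Figure D2:**
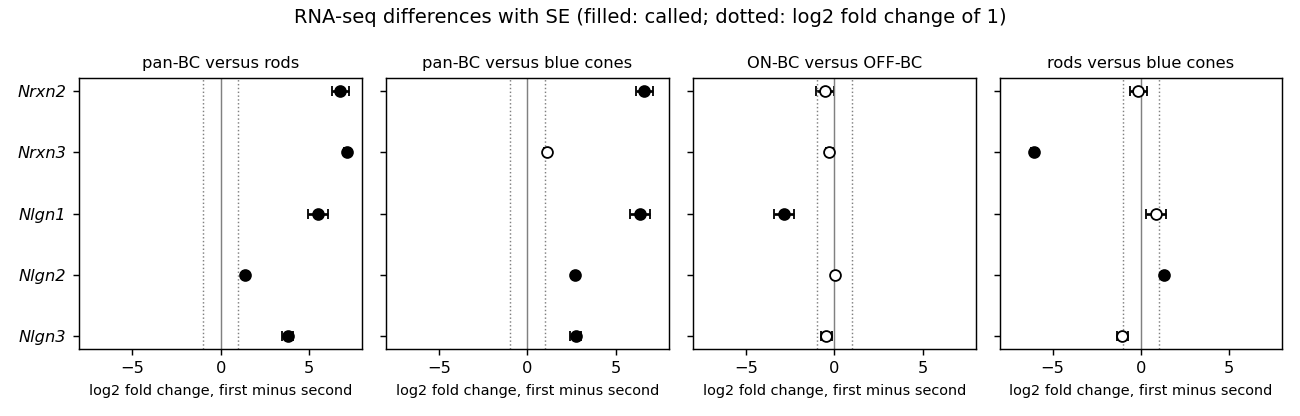
Log2 fold changes of the 5 genes in 4 RNA-seq comparisons, first population minus second, on the horizontal axis, with whiskers of 1 standard error. Filled points were called and dotted lines mark a log2 fold change of 1 in each direction; the points for pan-BC versus rods run from 1.39 for Nlgn2 to 7.15 for Nrxn3, and Nlgn1 at -2.86 is the filled point for ON-BC versus OFF-BC.

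Compared per kb of exon, the 5 genes kept a similar order within the bipolar populations and a different order in rods. In pan-BC, RPKM levels were 119 ± 11.6 (SD, n = 3) for Nrxn3, 12.2 ± 0.689 for Nlgn2, 5.14 ± 0.523 for Nlgn3, 2.44 ± 0.116 for Nrxn2 and 1.18 ± 0.147 for Nlgn1. No neighbours in that order overlapped. In OFF-BC, Nlgn1 at 3.24 ± 1.15 stood above Nrxn2 at 2.69 ± 0.497, but their ranges overlapped. In ON-BC, Nlgn1 at 0.449 ± 0.187 was the lowest of the 5. In blue cones, Nrxn3 at 46.5 ± 12.8 was followed by Nlgn2 at 1.56 ± 0.218 and Nlgn3 at 0.629 ± 0.154. In rods, Nlgn2 at 3.66 ± 0.0467 was the highest and stood above Nrxn3 at 0.658 ± 0.135 and Nlgn3 at 0.308 ± 0.165. Nrxn2 and Nlgn1 were last in rods and in blue cones, with levels of at most 0.0409, and overlapped in both.

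Of the summed RPKM level of the 2 neurexins, Nrxn3 made up 98.0% ± 0.161 in pan-BC (SD, n = 3), 98.1% ± 0.352 and 97.7% ± 0.802 in ON-BC and OFF-BC, 97.9% ± 2.48 in rods, and 99.9% in the lowest blue cone library. The makeup of the neuroligins varied more between populations. Nlgn2 made up 65.9% ± 2.64 of the summed level of the 3 neuroligins in pan-BC, 70.9% ± 6.46 in blue cones and 92.0% ± 3.72 in rods. Nlgn1 made up 13.8% ± 4.01 in OFF-BC and 2.35% ± 0.832 in ON-BC, ranges of 11.0% to 18.4% and 1.86% to 3.31% that did not overlap. Nlgn3 made up 23.8% ± 1.78 in ON-BC against 26.8% ± 6.63 for OFF-BC, and those ranges overlapped. Among 13264 genes ranked by this level in pan-BC, 94.8% lay below Nrxn3, 65.2% below Nlgn2, 45.8% below Nlgn3, 31.5% below Nrxn2 and 21.2% below Nlgn1.

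The genes whose pattern over the 5 population means was most like that of each of these were found by the root mean square difference of centred log2 values. For Nrxn3 they were Dirc2 (0.158), Elfn2 (0.188) and Epha5 (0.196), each lower than Nrxn3 in level but also present in blue cones, where Elfn2 averaged 459 normalized counts, against 1175.3 for pan-BC and 7.29 for rods. For Nrxn2 they were Pcdh10 (0.113), Pianp (0.122) and Sema4g (0.130). For Nlgn1 they were Parm1 (0.175), Pklr (0.285) and Tox3 (0.313), with Parm1 at 421 in OFF-BC and 62.5 in ON-BC. For Nlgn2 they were Hsf5 (0.0728), Endog (0.0962) and Ftx (0.0969), and for Nlgn3 Pcdha1 (0.0941), Tmem256 (0.098) and Tpd52l1 (0.102). These likenesses rest on 5 population means and describe level alone.

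Ligands of neurexin on the postsynaptic side other than the neuroligins were largely bipolar. Of 12 such genes tested of 15 listed, 11 were called higher in pan-BC relative to rods and 9 higher in pan-BC than in blue cones, with median log2 fold changes of 5.60 and 4.58 against 0.21 and 0.16 over all genes tested. Shares called higher in pan-BC over all genes tested were 27.8% and 22.7%. Lphn3, which encodes the adhesion receptor latrophilin 3, averaged 1389.6 normalized counts in pan-BC against 6.35 for rods, a difference of 7.94 ± 0.58 (adjusted p = 8.37e-09). Lrrtm3, Lrrtm1 and Lrrtm4, which encode leucine-rich repeat proteins that organize excitatory synapses, were higher in pan-BC by 7.14 ± 0.70 (adjusted p = 4.05e-07), 7.03 ± 0.43 (1.22e-09) and 6.98 ± 0.99 (3.45e-05). Between ON-BC and OFF-BC, 1 gene of the list was called higher in ON-BC and 2 higher in OFF-BC. The 2 were Lrrtm3, with means of 3527.1 in OFF-BC and 80.1 in ON-BC (-5.44 ± 0.70, adjusted p = 0.000161), and Lrrtm2 (-2.11, adjusted p = 0.00211), named after its value was seen. Lphn2, for latrophilin 2, went the other way, at 3263.1 in ON-BC and 330 in OFF-BC (3.31 ± 0.20, adjusted p = 3.47e-07). Between rods and blue cones, Clstn3, Lphn1, Lphn2 and Lrrtm2 were called, all 4 higher in blue cones.

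A list of proteins that bind neurexin on the same membrane or after secretion included several that split the bipolar subclasses. Counted with them were Cntnap1, Cntnap2 and Cntnap4, which are relatives of the neurexins. Of 11 tested of 13 listed, 9 were called higher in pan-BC relative to rods and 8 higher than in blue cones, and C1ql3, which encodes a secreted C1q-like protein, was the 1 called higher in each photoreceptor population. Shares of all genes tested called higher in pan-BC were 27.8% and 22.7%. Median log2 fold changes of the list were 5.95 and 4.56, against 0.21 and 0.16 over all genes. With a floor of 3 reads per library where rods had none, the first was 5.36. The neurexophilins, secreted ligands of α-neurexins, had no reads of Nxph3 or Nxph1 in any rod library, which with a floor of 3 reads per library made Nxph3 at least 120-fold and Nxph1 at least 41.1-fold higher in pan-BC. Cntnap2, a contactin-associated relative of the neurexins, was higher in pan-BC by 7.64 ± 0.33 (adjusted p = 1.11e-11), and Car10, a secreted carbonic anhydrase-related ligand, by 7.52 ± 0.32 (adjusted p = 7.4e-12) at a mean of 11835.5. Between ON-BC and OFF-BC, 2 were called in each direction, with C1ql3 (2.26, adjusted p = 0.0211) and Cntnap2 (3.11, adjusted p = 0.000165) higher in ON-BC. Nxph4 averaged 272 in OFF-BC and 3.66 in ON-BC (-6.07 ± 0.54, adjusted p = 2.93e-06), and Nxph1 389 and 9.07 (-5.69 ± 0.58, adjusted p = 1.41e-05). Car11 and Nxph3 were called higher in blue cones than in rods.

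Cytoplasmic partners of neurexin were divided between the classes. Of 11 tested, 7 were called higher in pan-BC relative to rods and 3 higher in rods, the last being Epb4.1, Epb4.1l2 and Lin7c. Against blue cones 4 were called in each direction, with Apba1, Apba2, Epb4.1l3 and Lin7a higher in pan-BC and Epb4.1, Epb4.1l2, Lin7c and Sdcbp higher in blue cones. Of all genes tested, 27.8% and 22.7% were called higher in pan-BC, 15.8% higher in rods and 13.7% higher in blue cones. Medians of the list were 1.61 against rods and 0.82 against blue cones, with 0.21 and 0.16 over all genes. Lin7a and Apba2, which encode members of the CASK-Mint-Veli scaffold, were higher in pan-BC relative to rods by 7.71 ± 0.44 (adjusted p = 3.42e-10) and 7.03 ± 0.37 (adjusted p = 1.34e-10). The band 4.1 genes, whose proteins link membrane proteins to actin, went opposite ways. Epb4.1l1 averaged 491 in pan-BC and 3.8 in rods (6.71 ± 0.21, adjusted p = 3.54e-13), and Epb4.1l2 averaged 492 in pan-BC and 56681.9 in rods (-6.85 ± 0.13, adjusted p = 2.07e-15). Lin7a was also the gene of this list called between the subclasses, at 16382.1 in ON-BC and 427 in OFF-BC (5.60 ± 0.44, adjusted p = 9.26e-07). Between rods and blue cones, Epb4.1l2 was called higher in rods and Apba2, Epb4.1l1 and Sdcbp higher in blue cones.

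Among 11 splicing factors from families that act on neurexin transcripts, 6 were called higher in pan-BC relative to rods and 5 higher in pan-BC than in blue cones. Shares over all genes tested were 27.8% and 22.7%. Median log2 fold changes of the 11 were 2.67 and 1.78, against 0.21 and 0.16 over all genes. The RNA-binding factors Nova2 and Nova1 were higher in pan-BC relative to rods by 8.41 ± 0.21 (adjusted p = 1.95e-14) and 6.50 ± 0.29 (adjusted p = 2.41e-11), and Rbfox1 and Rbfox3 by 5.02 ± 0.56 (4.71e-06) and 4.89 ± 0.65 (3.68e-05). The 5 called against blue cones were Nova1, Nova2, Rbfox1, Khdrbs2 and Khdrbs3. Between rods and blue cones, Khdrbs3 was called higher in rods and Khdrbs2, Nova1 and Nova2 higher in blue cones, where edgeR called 4 and DESeq2 1. For ON-BC versus OFF-BC, limma called 0, with 1 at an unadjusted p below 0.05, and edgeR called 1 and DESeq2 0.

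Partners of neuroligin at excitatory and inhibitory synapses were mostly higher in bipolar cells as well. Of 13 partners of excitatory synapses tested of 14 listed, 9 were called higher in pan-BC relative to rods and 8 higher than in blue cones, and Dlg4, for the scaffold PSD-95, was the 1 called higher in rods (-1.52, adjusted p = 0.00113). Shares of all genes tested called higher in pan-BC were 27.8% and 22.7%. Median log2 fold changes of the 13 were 3.68 and 2.83, against 0.21 and 0.16 over all genes. The scaffold genes Shank2 and Shank1 were higher in pan-BC relative to rods by 6.54 ± 0.24 (adjusted p = 1.52e-12) and 6.14 ± 0.19 (adjusted p = 2.92e-13) and Dlgap1 by 5.89 ± 0.54 (adjusted p = 2.64e-07), and Dlgap2, without reads in rods, was at least 81.9-fold higher. For ON-BC versus OFF-BC, limma called 0 of the 13, with 0 at an unadjusted p below 0.05, and edgeR and DESeq2 called 0. Shank2 was called higher in blue cones than in rods (-5.53, adjusted p = 6.32e-11). Of 7 partners of inhibitory synapses, 5 were called higher in pan-BC relative to both rods and blue cones, among them Mdga1, Mdga2, Iqsec3 and Igsf9b, and 4 were called higher in blue cones than in rods, among them Mdga1, Iqsec3 and Igsf9b. Median log2 fold changes of the 7 were 5.70 for pan-BC versus rods and 2.37 for pan-BC versus blue cones. Over all genes tested, 11.3% were called higher in blue cones than in rods. Mdga1 and Mdga2, whose proteins bind neuroligins and block neurexin, were higher in pan-BC relative to rods by 9.25 ± 0.49 (adjusted p = 9.6e-11) and 8.61 ± 0.68 (adjusted p = 2.16e-08). Iqsec3, which encodes a gephyrin-binding exchange factor, was higher by 5.92 ± 0.17 (adjusted p = 1.85e-13). For ON-BC versus OFF-BC, limma called 0 of the 7, with 1 at an unadjusted p below 0.05, and edgeR and DESeq2 called 1 each.

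The proteases that cleave neurexins and neuroligins were mostly not called. Of 9 tested, Psenen, a subunit of γ-secretase, was called higher in pan-BC relative to rods (1.96 ± 0.22, adjusted p = 0.000817) and Adam17, a sheddase, higher in rods (-1.64 ± 0.17, adjusted p = 0.00237). The Adam17 call was lost with scaling to library totals (-1.29, adjusted p = 0.146) and with no other setting tried. The median log2 fold change of the 9 was -0.36 against 0.21 over all genes tested. In the other 3 comparisons limma called 0, with 0 at an unadjusted p below 0.05, and edgeR and DESeq2 called 0.

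Accessibility was measured in 118 regions that lay in these genes, at their starts or nearest to their starts, of which 117 passed the filter on low counts. Nrxn3 had 65, Nlgn1 36, Nrxn2 11, Nlgn2 4 and Nlgn3 2. Of the 118, 95 lay in introns, 10 overlapped an exon and 13 were centred outside the genes. Of the 13, the regions at chr19:6418605-6418805 and chr11:69837712-69837912 reached into the first exons of Nrxn2 and Nlgn2. Of the 118, 8 were promoter regions, centred from 1000 bp before to 100 bp after a curated start. Of 108448 regions tested, limma called 40.3% higher in pan-BC relative to rods and 11.2% higher in rods, 28.8% higher in pan-BC than in blue cones and 7.13% higher in blue cones, 4.58% higher in ON-BC and 2.80% higher in OFF-BC, and 1.46% higher in rods and 8.56% higher in blue cones. With 2 libraries a population the test recovered 71% of simulated 8-fold differences and 12% of 4-fold differences between pan-BC and rods, so smaller differences would often have been missed. The simulated regions shared a common spread, and those changed had a mean count above a minimum. Recovery for regions near 0 in a population may differ. Other scalings moved the median log2 fold change of all regions between ON-BC and OFF-BC from 0.146 to -0.142, and the share of calls higher in ON-BC from 62.1% to 51.5% with TMM and 47.6% with library totals.

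**Figure D3:**
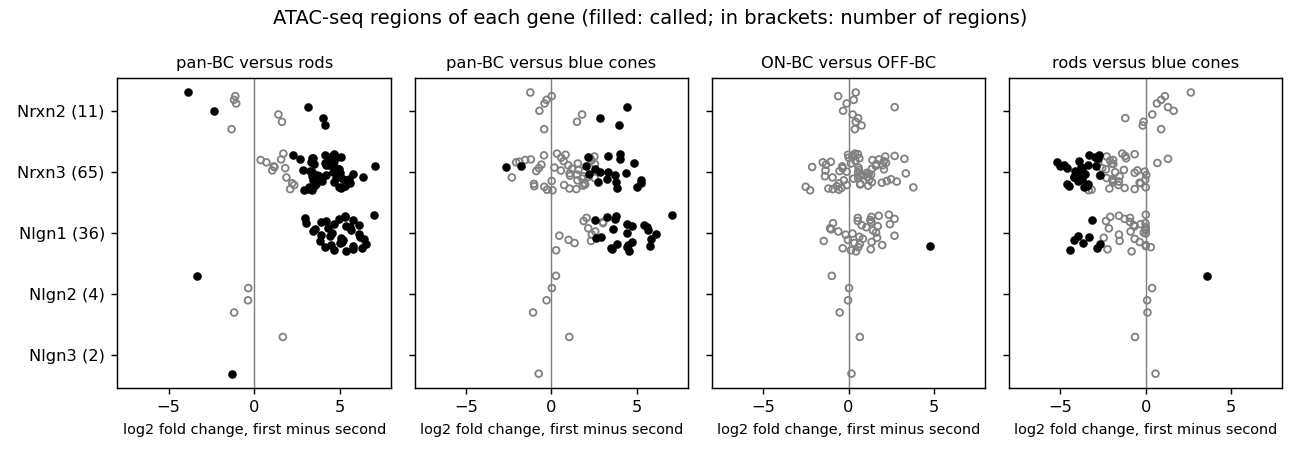
Log2 fold change in ATAC-seq count of every tested region of the 5 genes, first population minus second, in 4 comparisons. Each point is a region, filled where called, and the number of regions of each gene is in brackets. All 36 Nlgn1 regions lie to the right of 0 in pan-BC versus rods, and most Nrxn3 regions lie to the left of 0 in rods versus blue cones.

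Between pan-BC and rods, 91 of the 117 regions were called more open in pan-BC and 4 more open in rods. The 91 comprised 36 of 36 for Nlgn1, 52 of 64 for Nrxn3 and 3 of 11 for Nrxn2, and the 4 comprised 2 for Nrxn2, 1 for Nlgn2 and 1 for Nlgn3. Between pan-BC and blue cones, 46 were called more open in pan-BC, with 24 for Nlgn1, 19 for Nrxn3 and 3 for Nrxn2, and 2 of Nrxn3 were called more open in blue cones. Between rods and blue cones, 34 were called more open in blue cones, of which 26 belonged to Nrxn3 and 8 to Nlgn1, and 1 of Nlgn2 more open in rods. Within 1 gene the regions share the locus and are not replicates of a population. The study combined peaks called in its populations, so a region could enter through the population where it was open. Within Nlgn1 the authors called 26 and 47 peaks in pan-BC and 0 in each rod library. Within Nrxn3 they called 51 and 86 in pan-BC and 3 in each rod library. The counts called against rods were thus in part set by how regions were chosen.

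The Nrxn3 locus was open in bipolar cells, partly open in blue cones and mostly closed in rods. The median log2 fold change of its 64 regions was 4.05 in pan-BC versus rods, or 3.52 with regions at 0 in a population held at their bound, against 1.16 over all regions tested. It was 1.54 in pan-BC versus blue cones against 0.54, and -2.44 in rods versus blue cones, or -2.20 with bounds, against -0.20. The intronic region at chr12:89049385-89049585, 96095 bp downstream of the nearest start, held 122 and 143 normalized counts in pan-BC. Blue cones held 29.8 and 33.2, green cones 20.0 and 16.9, and neither rod library had a read. It was at least 60.6-fold more open in pan-BC than in rods (adjusted p = 5.75e-10). The region at chr12:89629910-89630110 was near 0 in photoreceptors, with 67.2 and 81.5 in pan-BC against 0 and 2.89 for blue cones and 0 and 1.36 for rods (pan-BC versus blue cones 5.25 ± 0.71, adjusted p = 9.42e-05). The region at chr12:88958486-88958686 was highest in blue cones, at 32.4 and 39.7, with 12 and 6.84 in pan-BC, 6.92 and 4.22 for green cones and no reads in rods, at least 16.5-fold below blue cones (adjusted p = 9.68e-05). The 2 regions called more open in blue cones than in pan-BC, named after their values were seen, were the introns at chr12:89073267-89073467 and chr12:89074685-89074885, with 154 and 155 and with 122 and 128 in blue cones against 36.0 and 57.0 and 12 and 30.8 in pan-BC. Between ON-BC and OFF-BC, 42 of the 64 had values above 0 and limma called 0, with 9 at an unadjusted p below 0.05, and edgeR called 5 higher in ON-BC and 1 higher in OFF-BC and DESeq2 0. Limma called 4 higher in ON-BC with a pseudocount of 4 or with these groups fitted alone, and 2 without OFF-BC replicate 2.

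Of the 3 curated Nrxn3 starts, the internal start at chr12:89812483 had an open region. Its promoter region at chr12:89812196-89812396 held 38.4 and 43.3 in pan-BC, 9.07 and 10.1 in blue cones and no reads in rods, with 37.3 and 36.6 for ON-BC and 18.9 and 27.3 for OFF-BC. It was called against rods (adjusted p = 8.99e-06) and not against blue cones (1.98 ± 0.63, adjusted p = 0.158). A start was taken to have a peak where the summit of a peak called by the authors lay from 1000 bp before to 100 bp after it. This start had one in all 6 bipolar libraries and in none of the 8 photoreceptor libraries. No library had a peak at the starts at chr12:88794504 and chr12:88953390. The region at chr12:88722747-88722947, near the first base of the gene, overlapped an exon of a predicted transcript. It lay at -71657 bp from the nearest curated start and was named after its values were seen. There pan-BC held 138 and 211, blue cones 233 and 228, green cones 70.7 and 67.6 and rods 31.2 and 37.3. It was called more open in pan-BC than in rods (2.29 ± 0.24, adjusted p = 8.63e-05). Within the whole gene the authors called 51 and 86 peaks in pan-BC, against 3 and 3 for rods, 15 and 29 for blue cones and 10 and 7 for green cones. ON-BC had 49 and 51 peaks and OFF-BC 26 and 33, in the 12 libraries with counts, which had 38506 to 94468 peaks in all.

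Nlgn1 was nearly closed in rods, where none of its 36 regions exceeded 3.12 normalized counts. Of its 36 regions the median log2 fold change was 5.09 in pan-BC versus rods, or 4.51 with bounds, and 3.57 in pan-BC versus blue cones, and all 36 values were above 0 in both. Within the gene the authors called 0 peaks in each rod library and 2 and 3 in blue cones. That shared sign was therefore in part set by the populations through which regions entered. The promoter region at chr3:26153925-26154125 held 68.0 and 125 in pan-BC against 5.18 and 5.78 for blue cones, 4.61 and 2.82 for green cones and no reads in rods, and was called against rods (adjusted p = 7.46e-08) and against blue cones (3.85 ± 0.51, adjusted p = 0.000171). By the same measure that start had a peak in all 6 bipolar libraries and in none of the photoreceptor libraries. The largest difference of the gene between rods and blue cones lay at -1815 bp from its outermost curated start, chr3:26333624-26333824, with 36.3 and 44.1 in blue cones and 0 and 2.71 in rods (-4.41 ± 0.59, adjusted p = 0.000365), where pan-BC held 32.8 and 71.8.

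Between ON-BC and OFF-BC, most Nlgn1 regions leaned towards ON-BC, but only 1 of 36 was called. Of its 36 regions 28 had a log2 fold change above 0, that is higher in ON-BC, with a median of 0.80 against 0.15 over all regions tested, whereas its RNA was higher in OFF-BC. The lean was not particular to Nlgn1. Over the 5 genes 81 of 117 regions were above 0, with a median of 0.56, and Nrxn3 had 42 of 64 and 0.57. Across the alternatives 26 to 29 Nlgn1 regions were above 0 and their median ran from 0.50 to 0.95. Limma, edgeR and DESeq2 called 0 Nlgn1 regions higher in OFF-BC. Limma called 1 of the 36 higher in ON-BC, where 4.58% of all regions tested were called higher in ON-BC. Of the 36, 5 had an unadjusted p below 0.05, with 5 called by edgeR and 1 by DESeq2. The called region, at chr3:26206256-26206456 in an intron at -52370 bp from the nearest start, held 62.7 and 80.5 in ON-BC, 46.4 and 64.4 in pan-BC and 0 and 5.84 in OFF-BC, and had no reads in any rod, blue cone or green cone library. The difference was 4.78 ± 0.82 (adjusted p = 0.00449). Without OFF-BC replicate 1, the library with no reads there, it was 3.40 ± 0.77 (adjusted p = 0.0775), and over 14 alternatives the adjusted p ranged from 0.000129 to 1.0, the last with DESeq2. At the promoter region of the start at chr3:26153986, ON-BC held 118 and 90.8 and OFF-BC 78.1 and 54.5, and the difference of 0.66 ± 0.51 was not called (adjusted p = 1.0).

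**Figure D4:**
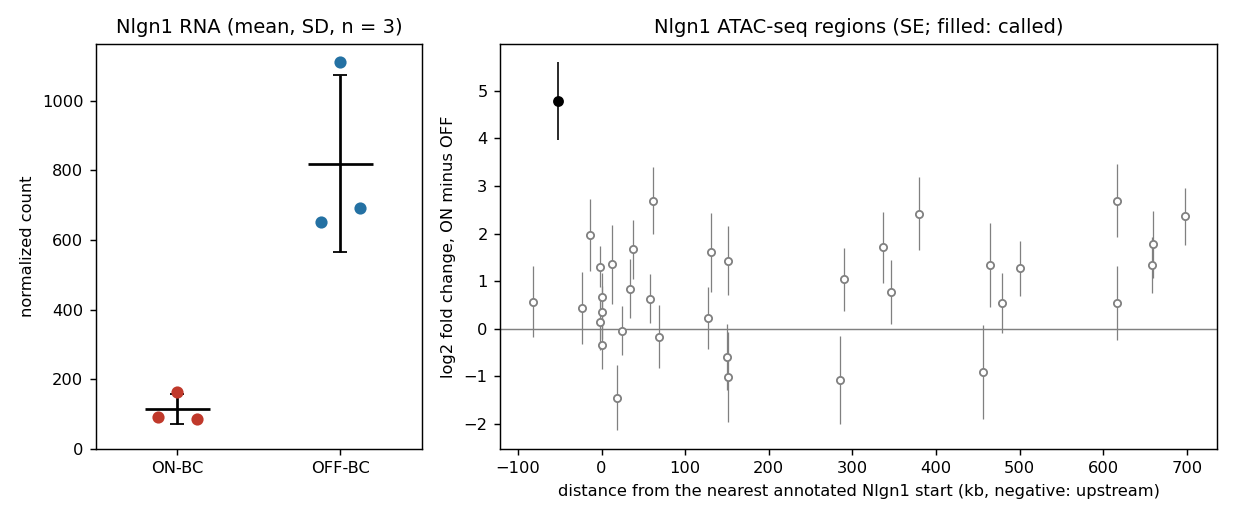
Left, Nlgn1 normalized RNA counts in ON-BC and OFF-BC libraries, with the mean and SD over n = 3. Right, log2 fold change in ATAC-seq count, ON-BC minus OFF-BC, of the 36 Nlgn1 regions against the distance in kb from the nearest annotated start, with whiskers of 1 standard error. RNA is 7.21-fold higher in OFF-BC. Of the regions, 28 of 36 lie above 0, a lean shared by Nrxn3 with 42 of 64, and the single filled point, at 4.78, is higher in ON-BC.

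Nrxn2 was open at its start in every population, including those with almost no Nrxn2 RNA. The promoter region at chr19:6418605-6418805 held 500 and 410 normalized counts in rods. Blue cones held 273 and 213 and green cones 190 and 203, while pan-BC had 216 and 184, ON-BC 194 and 206, and OFF-BC 136 and 195. Rods were thus the highest, and the difference of -1.18 ± 0.20 from pan-BC was not called by limma (adjusted p = 0.297) but was by edgeR (-1.41, adjusted p = 0.00673) and against a log2 fold change of 0 (4.03e-05), while Nrxn2 RNA was called higher in pan-BC. The other promoter region, at chr19:6418210-6418410, held 55.3 and 53.5 in rods and 21.6 and 28.5 in pan-BC (-1.10 ± 0.37, adjusted p = 0.557). The Nrxn2 start had a peak in all 14 libraries, with a fold enrichment of 33.5 and 30.0 in rods and 11.5 to 28 in the rest. Inside the gene, the region at chr19:6503009-6503209 held 31.2 and 28.5 in pan-BC against 0 and 2.03 for rods and 0 and 2.89 for blue cones (4.15 ± 0.72 against rods, adjusted p = 0.000653). The region at chr19:6474823-6475023 held 16.0 and 26.2 in pan-BC and no reads in blue cones, at least 6.98-fold below pan-BC (adjusted p = 0.00122). These and the intronic region at chr19:6497431-6497631, with 91.2 and 75.8 in pan-BC and 6.23 and 2.71 in rods, were the 3 called more open in pan-BC. The 2 called more open in rods, named with it after their values were seen, lay outside the gene at chr19:6412418-6412618, with 114 and 92.8 in rods and 8.0 and 4.56 in pan-BC, and in an intron at chr19:6489147-6489347, with 106 in both rod libraries and 20.0 and 20.5 in pan-BC. The regions at chr19:6489147-6489347, chr19:6497431-6497631 and chr19:6503009-6503209 are nearer to the start of Slc22a12. By nearest start alone, Nrxn2 had 1 region called more open in pan-BC and 1 in rods.

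Nlgn2 was open at its outer start in every population. Its promoter regions at chr11:69837712-69837912 and chr11:69838011-69838211 ranged from 110 to 209 and from 109 to 283 normalized counts over the 12 libraries, and none of the 4 comparisons was called for either. Another promoter region, at chr11:69838299-69838499, is nearer to the start of the neighbouring gene Tmem256. It held 520 and 535 in rods, with 517 and 467 for blue cones and 288 and 189 in pan-BC (pan-BC versus rods -1.17 ± 0.18, adjusted p = 0.281). That difference was called in 4 of 13 alternatives, with TMM scaling (adjusted p = 0.0444), with edgeR (0.00691), without pan-BC replicate 1 (0.023) and against a log2 fold change of 0 (1.76e-05). The intronic region at chr11:69835941-69836141 stood out in rods, at 101 and 110 against 14.4 and 6.27 in pan-BC, and at 10.4 and 5.78 for blue cones and 34.6 and 21.1 for green cones. It was called against pan-BC (-3.33 ± 0.60, adjusted p = 0.00162) and against blue cones (3.60 ± 0.60, adjusted p = 0.00417), and stayed called in all 13 alternatives of each. The start at chr11:69837784 had a peak summit within the same distance in all 14 libraries and the start at chr11:69834849 in none. In double-sorted green cone replicate 3, that peak did not reach into the gene.

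Nlgn3 had 2 regions, of which the one at its start was weakly open. The region at its start, chrX:101299089-101299289, held 20.8 and 30.2 in pan-BC, with 43.3 and 26.4 for ON-BC and 18.9 and 23.4 for OFF-BC. Rods held 6.23 and 8.13 and blue cones 10.4 and 13.0. It was not called against rods (1.68 ± 0.52, adjusted p = 0.172) or blue cones (1.05 ± 0.52, adjusted p = 0.749). This start had a peak in 5 of 6 bipolar libraries and in none of the photoreceptor libraries. The other region, beyond the end of the gene at chrX:101332513-101332713, was open everywhere and higher in rods, at 646 and 665 against 270 and 257 in pan-BC. Its difference of -1.31 ± 0.15 lay at the threshold (adjusted p = 0.05 after rounding), and was lost in 9 of 13 alternatives.

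**Figure D5:**
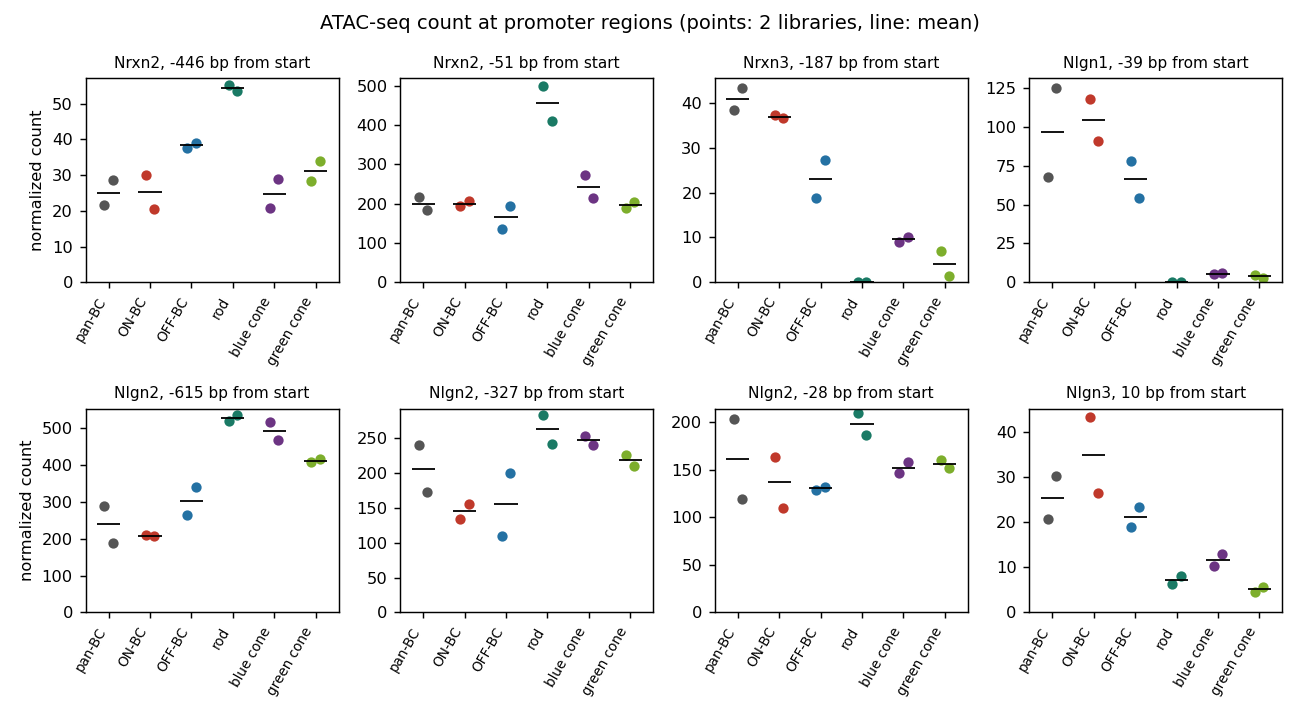
ATAC-seq normalized counts at the 8 promoter regions of the 5 genes in 6 populations, with the distance of the region's centre from the nearest annotated start in each title. Points are the 2 libraries and lines their mean. The Nrxn2 region at -51 bp is open in all populations and highest in rods, at 500 and 410, whereas the Nlgn1 region at -39 bp is at 0 in rods.

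The motifs marked in the sequences above were counted in the regions of each gene and in all 110715 regions. TAATCC was present in 20 of 65 Nrxn3 regions (30.8%) and 11 of 36 Nlgn1 regions (30.6%), against 21.8% of all regions. TAATTA or TAATTG was present in 12 of 65 Nrxn3 regions (18.5%) and 2 of 36 Nlgn1 regions (5.56%), against 11.4%. CANNTG was present in 50 of 65 (76.9%) and 30 of 36 (83.3%), against 68.9%. The fewer regions of Nrxn2 held TAATCC in 1 of 11, TAATTA or TAATTG in 1 and CANNTG in 5. Those of Nlgn2 held them in 0, 1 and 2 of 4, and neither Nlgn3 region held any. The Nlgn1 region called between ON-BC and OFF-BC held 4 E-boxes and 1 Q50 match, and the Nrxn3 region at chr12:89629910-89630110 1 K50 match and 2 E-boxes. The Nlgn2 promoter held 1 E-box, a motif found in 66.2% of 32851 promoters of the same length, where TAATCC occurred in 6.25% and the Q50 motif in 11.3%. These matches describe letters in a window and do not show binding.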

How the data were processed

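RNA-seq and ATAC-seq values were taken from the tables that the authors deposited. Per the study's methods and the submitters' processing notes, 50-bp reads from a kit that does not mark strand were aligned with STAR 2.7.0d and counted per RefSeq gene with HTSeq, and ATAC-seq reads were aligned to mm10 with Bowtie2 and kept at nucleosome-free length. The deposited values are a signal, counts divided by a size factor per library. Peak files hold the ratio (fold enrichment) that the authors obtained with MACS2 2.1.1 in each library. Whole reads were recovered in 100.0% of values above 0 (tolerance 0.01 read).

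From these values, limma 3.58.1 (R 4.3.3) was fitted to log2(value + 1) over all 15 or all 12 libraries, after edgeR's filter on low counts, with a trended test against a log2 fold change of 1 and Benjamini-Hochberg adjustment over all features tested. A call needed an adjusted p below 0.05. edgeR 4.0.16 and DESeq2 1.42.0 on the recovered reads, other scalings, pseudocounts and filters, a replicate block and leaving out each library were alternatives. On simulated counts for pan-BC versus rods, drawn with a spread common to all genes, limma recovered 89% of 4-fold changes in 13666 genes. Counting error and library spread limit the precision at 12329548 to 26266746 RNA-seq and 4176776 to 12345845 ATAC-seq reads. Groups came from the labels. Lower bounds on folds use a floor of 3 reads per library.

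Genes other than the 5 were named by rule: up to 4 of each list with the largest called change between pan-BC and rods and up to 2 between ON-BC and OFF-BC, the 3 genes closest in pattern, and for regions the largest called change of each gene in each comparison. Genes and regions behind counts of 5 or fewer, and other single examples, were named after their values were seen. The 5 genes and all lists were chosen with earlier results of these data known. Of the gene names in the RNA-seq data, 27 had turned into dates and were not used. Some genes and regions that the rule names are not reported here.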

Additional observations from a re-analysis of the deposited data

How the results depend on the processing

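Of the results on single genes and regions, 1270 values under an alternative kept their direction and side of the threshold, 16 gained a call, 37 lost it and 30 changed sign, none of the last being called. Tested against a log2 fold change of 0, 11156, 10704, 3783 and 8068 genes were called in pan-BC versus rods, pan-BC versus blue cones, ON-BC versus OFF-BC and rods versus blue cones (6112, 5092, 919 and 2231 against 1), and in the last 3 comparisons 66171, 26416 and 37557 regions (38966, 8010 and 10871), of which 78, 23 and 58 belonged to the 5 genes (48, 1 and 35). edgeR called 12927 regions in ON-BC versus OFF-BC and 19112 in rods versus blue cones, and DESeq2 4791 in ON-BC versus OFF-BC. Leaving out 1 library gave 4014 (without OFF-BC replicate 1) to 5950 regions in ON-BC versus OFF-BC and 7051 (without blue cone replicate 1) to 8340 in rods versus blue cones. The single region of the 5 genes called in ON-BC versus OFF-BC became 8 with a pseudocount of 4, 2 with library totals, 11 with edgeR, 7 with the 2 groups alone and 1 to 3 without 1 library. Among uncalled values, rods minus blue cones for Nrxn2 RNA was 0.01 with a pseudocount of 4, 0.21 with edgeR, 0.23 with DESeq2 and -0.89 to 0.45 without 1 library, that for Nlgn1 -0.07 to 1.54, and ON-BC minus OFF-BC for Nlgn2 -0.03 to 0.09. At promoter regions, named by their first base, pan-BC minus blue cones was -0.27, -0.16 and -0.24 with TMM, library totals and edgeR and -0.36 to 0.41 without 1 library at 69837712 (Nlgn2), and -0.27, -0.16, -0.31 and, with DESeq2, -0.00012, and -0.21 to 0.25 without 1 library, at 6418210 (Nrxn2). Pan-BC minus rods at 69837712 was -0.73 to 0.04 without 1 library. ON-BC minus OFF-BC at 69837712 was -0.19, -0.27 and -0.17 with TMM, library totals and edgeR and -0.25 to 0.31 without 1 library, at 69838011 -0.46 to 0.40, and at 6418605 -0.01 with library totals. Rods minus blue cones with library totals was -0.26 at 69838011, where it was -0.03 to 0.20 without 1 library, and -0.24 at 69838299. The cause of these changes was not tested.

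ON-BC and OFF-BC libraries of the same number share a postnatal day (43, 48 and 42 in RNA-seq, 42 and 46 in ATAC-seq), but the labels do not say that they share animals or a sort. Over all groups, same-numbered libraries did not deviate together in every pair (correlations of -0.0813 to 0.222 in RNA-seq and -0.0274 to 0.000174 in ATAC-seq), so the numbers were not taken as pairs. With a replicate block within ON-BC and OFF-BC, 907 genes were called, 8425 regions, and 3 regions of the 5 genes, among them 2 of Nrxn3 higher in ON-BC where 0 were called without the block, and Nlgn1 RNA kept its call (adjusted p = 0.047). Over all libraries the block called 919 genes there, and rods versus blue cones for Nlgn2 lost its call (adjusted p = 0.0669).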
